A study of Mus musculus with 9 samples.

Results

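Matrix metalloproteinases (MMPs), the ADAM and ADAMTS proteases and their tissue inhibitors (TIMPs) were followed in mouse brain endothelial cells under 3 kinds of flow. The members are all rows of the deposited table whose symbol is Mmp, Adam or Adamts with a number (with an a or b suffix for Mmp and Adam) or Timp1 to Timp4, which gave 66 of 31232 genes: 23 MMP, 22 ADAM, 17 ADAMTS and 4 TIMP genes. Of these, 46 had enough counts to be tested (16, 14, 12 and 4). The other 20 had 1 to 65 counts over all 9 libraries together and at most 21 in any library, and are described only as near the floor of detection.

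The cells were bEnd.3, an immortalised mouse brain endothelial line, grown on glass coverslips and exposed to flow in a parallel-plate chamber, with 3 libraries for each condition. PSS was laminar flow at 10 dyne/cm2, set by the submitters as normal shear in brain vessels, and HSS was laminar flow at 20 dyne/cm2, set as the shear of an early aneurysm. Vortex, which the protocol text calls VSS, was vortex flow at 0.5 to 2 dyne/cm2 and stood for the late, enlarged aneurysm. All groups share the line, medium and coverslip, and the time under flow was not given in the sources used here. GEO's labels do not tie replicates to different cultures, and they describe the RNA that was sequenced as mixed, so p-values measure the spread among these libraries, which may be technical.

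MMPs cut collagens and other matrix proteins. Some are secreted, and the membrane-type ones are anchored in the cell surface. ADAMs are membrane proteins, many of which release the outer parts of receptors, ligands and adhesion molecules. ADAMTS enzymes are secreted and cut proteoglycans, procollagens or von Willebrand factor, and TIMPs bind to the active site of these enzymes. Loss of matrix from the vessel wall is a known feature of aneurysms, and the enzymes are regulated after transcription as well, by activation of their proforms and by TIMPs. RNA levels therefore do not give activity.

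Total counts per library ranged from 17407217 to 22965802. Vortex replicate 2 stood apart from the rest, while GEO's labels give it the same treatment as the other Vortex libraries. Whether it is the labelled culture under vortex flow could not be told from the labels. The endothelial gene Pecam1 had 30567 counts in it, 28 and 1116 in Vortex replicates 1 and 3, 254 to 300 in PSS and 23 to 32 in HSS. Every Vortex value that includes this library is to be read with that in view. The lowest correlation of log2 counts scaled by library size (CPM) with a library of its own group was 0.852 for it and for Vortex replicate 1, against 0.977 to 0.993 in PSS and HSS. Relative to PSS, its genes with the lowest GC content (the lowest eighth) had a median log2 difference of -1.41 and those in the highest eighth 0.90, where the other 8 libraries lay between -0.45 and 0.27. The summed level of 10 endothelial markers was 2346 to 2980 CPM in PSS, 683 to 701 in HSS, and 1208, 6679 and 1562 in Vortex replicates 1, 2 and 3, and the tight junction gene Cldn5 had 2, 0 and 0 counts in the HSS libraries. The endothelial label was thus met by its markers in PSS, and some markers were near the floor in HSS and in Vortex replicate 1. Erg had 15, 8 and 5 counts in HSS and 20 in Vortex replicate 1, where Cldn5 had 13. Cdh5 and Tie1 were not, at 119 to 126 and 202 to 208 CPM in HSS, but were lower than in PSS (450 to 577 and 316 to 465). Kdr and Tek were at 7.12 to 7.74 and 4.77 to 6.58 CPM in HSS, against 399 to 471 and 168 to 181 in PSS. Vwf and Emcn were at 13.1 to 16.2 and 2.26 to 3.37 CPM in HSS, against 611 to 855 and 54.8 to 73.8 in PSS. Flt1 was higher in HSS (329 to 338 CPM) and Vortex (447 to 485) than in PSS (178 to 258). The summed level of 7 markers of fibroblasts and pericytes came to 289 to 362 CPM in PSS, 351 to 368 in HSS, and 657, 61.2 and 591 in Vortex. The higher sums in Vortex replicates 1 and 3 were held mostly by Pdgfra (467 and 332 CPM, against 69.4 to 76.4 in PSS). Col1a1 went the other way, with 124 and 165 CPM in these 2 libraries and 189 to 263 in PSS. Macrophage markers summed to 6.87 to 7.86, 22.1 to 25.5, and 50.9, 22.1 and 56.0 CPM, held mostly by Cd68 and Csf1r, and in Vortex replicate 3 also by Lyz2. The other 4 macrophage markers, Ptprc (carried by all leukocytes), Adgre1, Itgam and Aif1, had 0 to 7 counts in every library. In bulk RNA, fewer cells of a type and less RNA per cell cannot be told apart, and the part of these markers in the results below was not tested.

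Several genes of secreted MMPs lie side by side. In the order of the RefSeq annotation of GRCm38.p6, 10 members form a cluster on chromosome 9: Mmp13, Mmp12, Mmp1b, Mmp3, Mmp1a, Mmp10, Mmp8, Mmp27, Mmp20 and Mmp7. Only Mmp13, Mmp12, Mmp3, Mmp10 and Mmp27 of them were tested. The remaining 5 had 1 to 29 counts in all libraries together. The 100 bases before the annotated start of Mmp13, Mmp12, Mmp3 and Mmp10, and of Mmp8 as a neighbour with few counts, are shown because the first 4 shared an order of libraries, with Vortex replicates 1 and 3 above PSS and Vortex replicate 2 below it. Capitals mark TGACTCA, the binding motif of AP-1 factors, on either strand (TGAGTCA on the other). Sequences are from RefSeq on GRCm38.p6, + strand, 5′ to 3′, while the counts were made on GRCm39.
Mmp13 (chr9:7272414-7272513): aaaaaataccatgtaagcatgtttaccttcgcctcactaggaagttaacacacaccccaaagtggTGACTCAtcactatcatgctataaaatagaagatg
Mmp12 (chr9:7347274-7347373): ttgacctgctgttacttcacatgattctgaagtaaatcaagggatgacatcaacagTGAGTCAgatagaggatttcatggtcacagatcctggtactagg
Mmp3 (chr9:7445722-7445821): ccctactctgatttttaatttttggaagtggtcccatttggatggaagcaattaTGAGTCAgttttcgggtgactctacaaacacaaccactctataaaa
Mmp10 (chr9:7502242-7502341): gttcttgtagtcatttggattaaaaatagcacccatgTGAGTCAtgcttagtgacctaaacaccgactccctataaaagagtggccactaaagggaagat
Mmp8 (chr9:7558329-7558428): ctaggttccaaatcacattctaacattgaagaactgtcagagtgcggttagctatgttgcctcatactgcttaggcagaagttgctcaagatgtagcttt
The motif began 35 bases before the start of Mmp13, 44 before 1 of the 2 annotated starts of Mmp12 (the other had none), 46 before Mmp3 and 63 before Mmp10. Windows ran from 250 bases before to 50 after each start, and some genes had more than 1. The motif was in a window of 7 of the 10 cluster genes, and of 2 of the 31 other members with one (Adam1b and Adam19). Counted by window, it was in 9 of the 46 windows of members and in 5.20% of all 32851 windows. Among the 7 were Mmp1a, Mmp1b and Mmp7, which had 3, 15 and 6 counts in total. Mmp27, with no match, did not pass in HSS (1.82 ± 0.69, adjusted p = 0.148) or Vortex (1.72 ± 0.69, adjusted p = 0.133), and passed in both without Vortex replicate 2 (0.0231 and 0.0121). It met the count filter only through libraries outside PSS, where it was higher, so these p-values do not support a rise. After removal of the GC trend, Mmp10 and Mmp13 no longer had the order of libraries given above. Adam17, Mmp24 and Adamts14 had that order with all values as counted, and no match in their windows. A match of letters says nothing of binding. In all, 41 of the 66 members had a window.

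**Figure D1:**
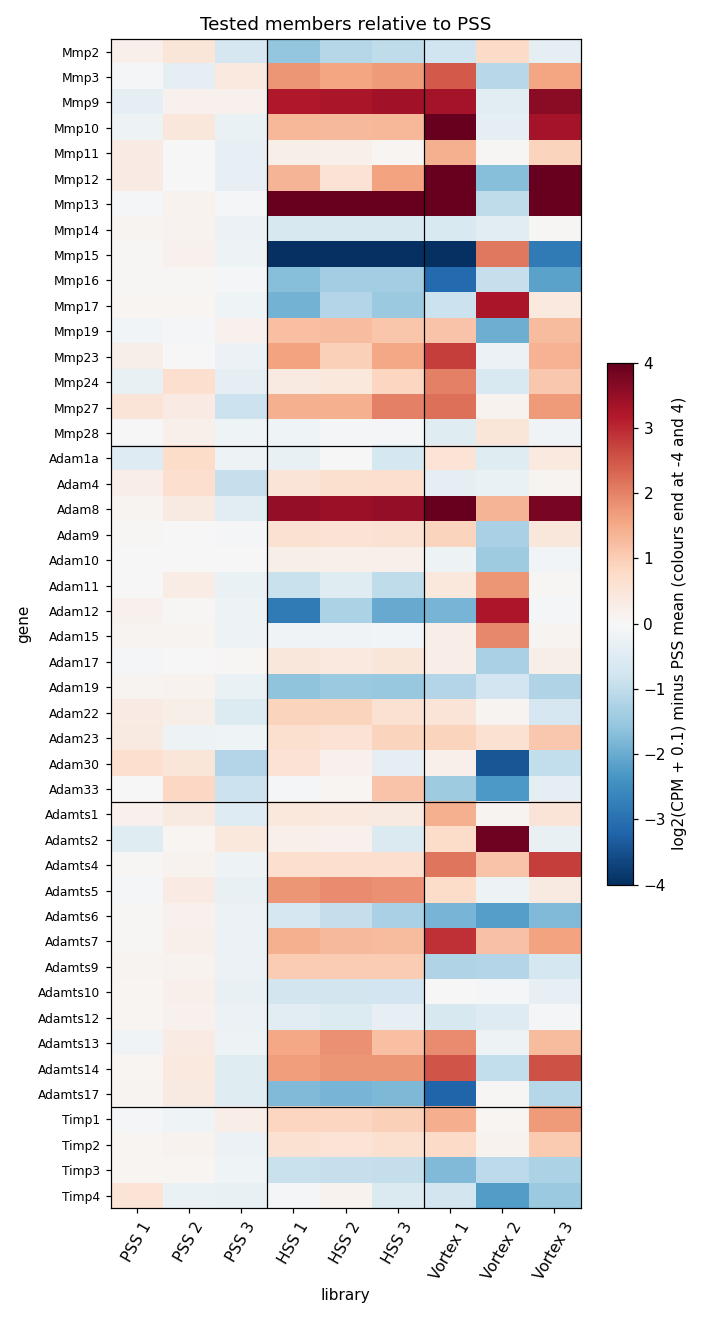
Each row is 1 of the 46 tested members and each column 1 library; colour is log2(CPM + 0.1) minus the mean of the 3 PSS libraries, with colours ending at -4 and 4, and lines separate the groups and the 4 families. The HSS columns look alike, and Vortex 2 takes the opposite colour from Vortex 1 and 3 in rows such as Mmp13, Mmp12 and Mmp15.

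Gene levels below are the deposited FPKM (fragments scaled by gene length and library size), which allow levels of different genes to be compared, and changes are log2 fold changes from the counts by edgeR's quasi-likelihood test. A member is said to rise or fall where its adjusted p (Benjamini-Hochberg, over all 15774 tested genes) was under 0.05 in the fit of all 9 libraries, in which each gene has 1 spread for the 3 groups. The biological coefficient of variation was 0.350 in that fit and 0.184 without Vortex replicate 2. Values from the fit without that library are given where they change a call or move a value by much, and for many of the other genes. That fit was added because earlier results of these data set Vortex replicate 2 apart. Its smaller p-values are therefore no separate support for a change. Both HSS and Vortex are compared with the same PSS libraries.

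In HSS against PSS, 4 members rose (Adam8, Mmp9, Adamts5 and Adamts9) and 3 fell (Adam19, Timp3 and Adamts10), which is 8.70% and 6.52% of the 46 tested, where 4.18% and 3.7% of all tested genes rose and fell. Without Vortex replicate 2 there were 19 members higher and 11 lower (15.4% and 13.7% of all genes), and a fit of the PSS and HSS libraries alone had 20 higher and 12 lower of 44 tested (20.4% and 20.4% of all genes). Among the 19, Mmp23, Mmp27 and Adamts13 (2 to 8 counts per PSS library) met the count filter only with libraries outside PSS. Among the 11, Mmp2 and Adam12 (1 to 6 counts per HSS library) met it only with libraries outside HSS. Their calls do not support a change. Ranges of the groups did not overlap for 23 members above and 13 below, against 29.9% and 26.3% of all genes. With any PSS or HSS library left out, 1 to 3 members passed, and without Vortex replicate 1 there were 12. For these fits the share of all genes is not given, so the counts cannot be compared with it. The median log2 fold change of the tested members was 0.40, and that of all genes was -0.00.

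In Vortex against PSS, 7 members rose (Adam8, Adamts4, Adamts7, Mmp9, Mmp10, Mmp12 and Mmp13) and 5 fell (Adam19, Adamts6, Adamts9, Mmp16 and Timp3), where 8.33% and 5.03% of all genes did. Without Vortex replicate 2 there were 20 higher and 7 lower, against 19.7% and 16.6% of all genes. Among the 20 were Mmp12, Mmp23, Mmp24, Mmp27 and Adamts13, with 2 to 10 counts in each PSS library. They met the count filter only with libraries outside PSS, where they were higher. Their calls, and that of Mmp12 among the 7 above, do not support a rise. A fit of the PSS and Vortex libraries alone called 0 of 41 members by edgeR (0.488% of all genes), with 16 at an unadjusted p under 0.05, while DESeq2 on all 9 libraries called 16. The adjusted p of the 12 genes called above in that smaller fit lay between 0.0506 and 0.136. The count was 3, 7 and 5 without PSS replicates 1, 2 and 3, 7 with any HSS library left out, and 7 without Vortex replicate 3. The Vortex and PSS ranges did not overlap for 4 members above and 7 below, against 15.6% and 14.4% of all genes. In Vortex against HSS, Adamts4 rose and Adamts5 and Adamts9 fell (4.37% and 2.67% of all genes), and without Vortex replicate 2 there were 12 members higher and 6 lower (13.9% and 10% of all genes). A fit of the HSS and Vortex libraries alone called 1 of 42, Adamts9 (0.438% of all genes). The count was 9 without Vortex replicate 1, and 1 with PSS replicate 1 or any HSS library left out. The Vortex and HSS ranges did not overlap for 8 members above and 10 below, against 19.5% and 16.9% of all genes. The median log2 fold change of all genes was 0.11 in Vortex against PSS and 0.10 against HSS, and that of the tested members 0.68 and 0.30. Without Vortex replicate 2 the members' medians were 0.26 and 0.34. Shares of all genes are not given for DESeq2 or for fits that left out a library other than Vortex replicate 2. Those counts cannot be compared with such a share.

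Mmp13, interstitial collagenase of the mouse, had the largest range of FPKM of the MMPs. It was at 2.87, 3.39 and 2.75 FPKM in PSS replicates 1 to 3, at 53.9, 54.0 and 52.9 in HSS, and at 227, 1.29 and 121 in Vortex. All HSS libraries thus lay far above PSS, Vortex replicates 1 and 3 lay above HSS, and Vortex replicate 2 lay below PSS. In HSS its log2 fold change was 4.19 ± 1.23 (SE, adjusted p = 0.0741), which did not pass, and 4.19 ± 0.25 without Vortex replicate 2 (adjusted p = 2.14e-06). In Vortex it was 5.45 ± 1.31 (adjusted p = 0.0268), and 6.03 ± 0.27 (adjusted p = 5.02e-07) without replicate 2. That Vortex call was lost on leaving out any HSS or PSS library, or Vortex replicate 3, with adjusted p up to 0.114.

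Of its neighbours, Mmp10 (stromelysin 2) had 1.93, 3.10 and 1.76 FPKM in PSS, 5.42, 5.37 and 5.46 in HSS, and 37.6, 1.49 and 20.8 in Vortex. Mmp12, the macrophage elastase, was at 0.0399 to 0.0741 FPKM in PSS and 0.0873 to 0.193 in HSS, and at 5.09, 0.00602 and 1.24 in Vortex, where the middle value is a single count. Both showed the same order of Vortex libraries as Mmp13. The macrophage markers Ptprc, Adgre1, Itgam and Aif1 were at 0 to 7 counts in every library, while Cd68 was highest in Vortex replicates 1 and 3. Csf1r had another order, with 1.36 to 2.79 CPM in PSS, 15.8 to 18.9 in HSS, and 17.1, 13.1 and 8.64 in Vortex. Lyz2 was highest in Vortex replicate 3 (10.7 CPM) and lowest in Vortex replicate 1 (0.189). The log2 fold changes of Mmp10 and Mmp12 in Vortex were 3.32 ± 0.87 (adjusted p = 0.0373) and 5.38 ± 1.50 (adjusted p = 0.0453). They were 3.86 ± 0.30 and 5.96 ± 0.63 without replicate 2 (adjusted p = 1.46e-05 and 9.58e-05). Both calls were lost on leaving out any library other than Vortex replicate 2, with adjusted p up to 0.138 and 0.161. The Vortex calls of Mmp9, Mmp10, Mmp12 and Mmp13 were also lost with no filter beyond 1 count (0.0757 to 0.171) and by limma on log2 FPKM (0.128 to 0.178). In HSS neither passed, at 1.30 ± 0.82 for Mmp10 (adjusted p = 0.393) and 1.40 ± 1.44 for Mmp12 (adjusted p = 0.628). That of Mmp10 passed without Vortex replicate 2 (0.00621) and that of Mmp12 did not (0.152). Mmp12, with 6 to 10 counts in each PSS library, met the count filter only with libraries outside PSS, where it was higher. The p-values of Mmp12 therefore do not support a rise.

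Mmp3, stromelysin 1, which also activates other MMPs, did not pass with all 9 libraries. It had 4.14, 3.40 and 5.48 FPKM in PSS, 14.2, 12.6 and 13.8 in HSS, and 20.3, 1.69 and 11.8 in Vortex. Its log2 fold change was 1.67 ± 0.67 in HSS (adjusted p = 0.171) and 1.54 ± 0.67 in Vortex (adjusted p = 0.16), with adjusted p = 0.000847 and 0.000408 without Vortex replicate 2.

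Of the gelatinases, which cut denatured and type IV collagen, Mmp9 rose in both conditions and Mmp2 stayed low. Mmp9 was at 0.197, 0.293 and 0.285 FPKM in PSS, 2.50, 2.65 and 2.81 in HSS, and 2.45, 0.160 and 3.21 in Vortex. Its HSS and PSS ranges were apart, and Vortex replicate 2 again lay below PSS. The log2 fold change was 3.38 ± 0.83 in HSS (adjusted p = 0.0406) and 3.05 ± 0.82 in Vortex (adjusted p = 0.0408). The HSS call was lost on leaving out any HSS or PSS library or the third Vortex library (up to 0.161), and the Vortex call on leaving out any library other than Vortex replicate 2 (up to 0.149). With the GC trend removed, they were at 0.0571 and 0.0787. Leaving out Vortex replicate 2 gave adjusted p = 5.13e-06 in HSS and 6.03e-06 in Vortex. Mmp2 had 4 to 28 counts in every library, with 0.246 ± 0.107 FPKM in PSS, 0.0793 ± 0.0199 in HSS and 0.207 ± 0.137 in Vortex (mean ± SD, n = 3), and did not pass in HSS (-1.57 ± 0.61, adjusted p = 0.16) or in Vortex (-0.04 ± 0.56, adjusted p = 0.969). Its HSS value passed without Vortex replicate 2 (adjusted p = 0.0408). Mmp2 met the count filter only with libraries outside HSS, where it was higher, so this p-value does not support a fall. In the PSS and HSS libraries alone it had too few counts to be tested.

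**Figure D2:**
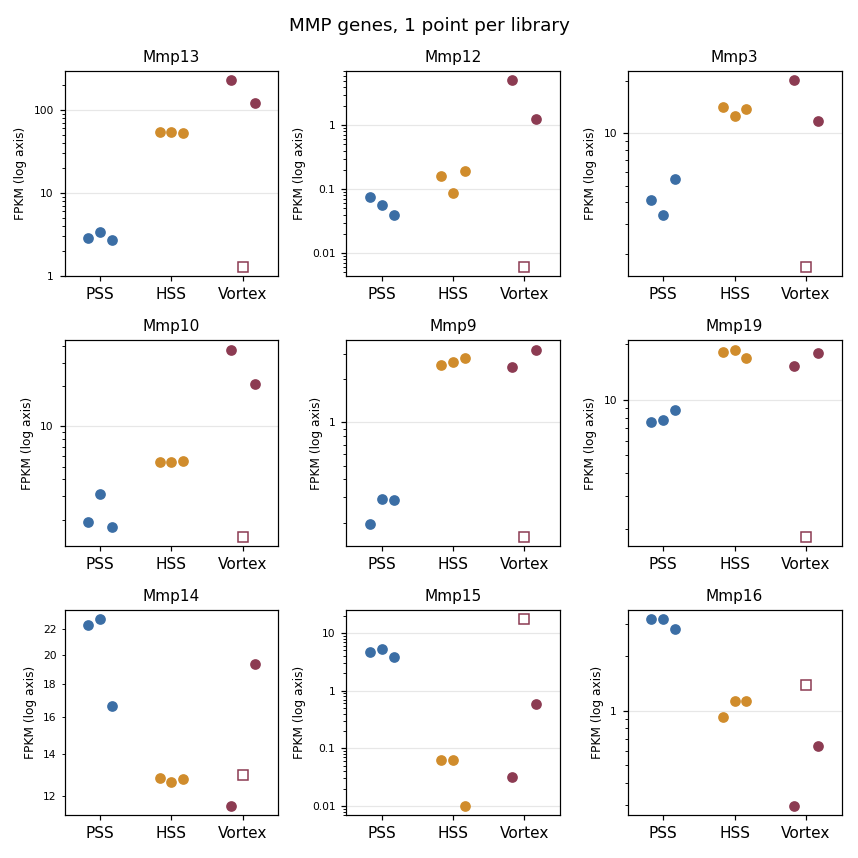
FPKM of 9 MMP genes on log axes, 1 point per library in PSS, HSS and Vortex, with Vortex replicate 2 as an open square. For Mmp13, Mmp12, Mmp3, Mmp10, Mmp9 and Mmp19 the open square lies below all PSS points while the other Vortex points lie above them; for Mmp15 it is the highest point, at 17.5 FPKM.

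Of the membrane-type MMPs, Mmp16 fell in Vortex, and the others did not pass with all libraries. Mmp14, which activates proMMP2 at the cell surface together with TIMP2, had the highest FPKM of all MMPs in PSS (22.3, 22.8 and 16.6), and was at 12.8, 12.6 and 12.8 in HSS and 11.6, 12.9 and 19.4 in Vortex. The HSS libraries lay below PSS and the Vortex ones overlapped it (log2 fold change -0.65 ± 0.21, adjusted p = 0.0981, and -0.32 ± 0.21, adjusted p = 0.343). The HSS value passed without Vortex replicate 2 (adjusted p = 0.0188). Mmp16 was at 3.18, 3.19 and 2.83 FPKM in PSS, 0.916, 1.13 and 1.13 in HSS and 0.298, 1.39 and 0.639 in Vortex, with all 6 libraries of HSS and Vortex below PSS. Its fall in Vortex was -1.80 ± 0.46 (adjusted p = 0.034), lost on leaving out any HSS or PSS library or the third Vortex library (up to 0.11), and after removal of the GC trend (-1.05, adjusted p = 0.334). In HSS it was -1.49 ± 0.46 (adjusted p = 0.0825), and without Vortex replicate 2 both passed (0.000759 and 0.000117).

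Mmp15, another membrane-type MMP, was chosen after its values were seen. It had 4.79, 5.23 and 3.86 FPKM in PSS, 0.0624, 0.0639 and 0.00996 in HSS (7, 6 and 1 counts), and 0.0319, 17.5 and 0.584 in Vortex. Vortex replicate 2 was thus the highest library and Vortex replicate 1, with 3 counts, was at the level of HSS. Its log2 fold change in HSS was -6.59 ± 1.89 (adjusted p = 0.0689), and -6.59 ± 0.73 without Vortex replicate 2 (adjusted p = 0.000116). In Vortex it was 0.58 ± 1.36 (adjusted p = 0.813), and -3.71 ± 0.67 without replicate 2 (adjusted p = 0.00218). Mmp17, a lipid-anchored member named for the same reason, had 7.21 FPKM in Vortex replicate 2 and 0.211 to 1.02 in the other 8 libraries. Endothelial markers, summed above, were also highest in that library.

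The number of members with Vortex replicates 1 and 3 above every PSS library and Vortex replicate 2 below every PSS library was 10, 21.7% of the 46, where 7.68% of all genes did. They were Mmp3, Mmp9, Mmp10, Mmp12, Mmp13, Mmp19, Mmp24, Adam9, Adam17 and Adamts14. The reverse was seen in 1 member, Mmp15 (8.66% of all genes). Of the 10, Mmp12 and Mmp24 were near the floor, with 1 and 3 counts in Vortex replicate 2. Their PSS libraries had 6 to 10 and 4 to 10 counts, and both met the count filter only with libraries outside PSS. Vortex replicate 2 lay more than 2-fold outside the range of the other Vortex libraries (on CPM + 0.1) in 26 of the 46 members (33% of all genes). The GC content of the 10 ran from 40.25% in Mmp12 to 59.52% in Adamts14, with a median of 49.4% over all tested genes. After removal of the GC trend of each library, 13 members met the first pattern (8.37% of all genes), and Mmp10 and Mmp13 no longer did.

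The summed FPKM of the MMPs was 51.7 to 61.9 in PSS, 117 to 119 in HSS, and 336, 57.0 and 211 in Vortex replicates 1, 2 and 3. Its make-up differed. In PSS Mmp14 held 32.13% to 37.43% of the sum and Mmp13 4.82% to 5.48%. In HSS Mmp13 held 45.1% to 45.4% and Mmp14 10.6% to 10.9%. In Vortex Mmp13 held 67.7%, 2.26% and 57.5%. The summed FPKM of the TIMPs was 96.4 to 106 in PSS, 141 to 150 in HSS and 161, 86.2 and 205 in Vortex. The ratio of the MMP sum to the TIMP sum was 0.536 to 0.584 in PSS, 0.782 to 0.841 in HSS, and 2.09, 0.662 and 1.03 in Vortex. All HSS and Vortex libraries had a higher ratio than all PSS libraries. The smallest exact permutation p for such small groups is 0.1, so no test of the sums is given.

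**Figure D3:**
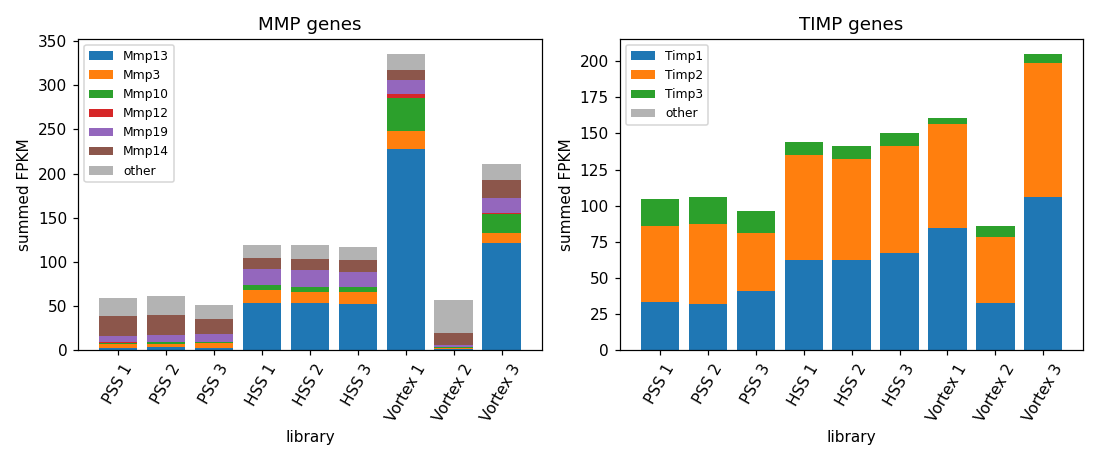
Stacked bars of summed FPKM per library, for MMP genes (left) and TIMP genes (right), split by gene, with all other members of the family in grey. Mmp13 takes the largest part of the MMP bar in HSS and in Vortex 1 and 3, and Mmp14 in PSS; the grey part of Vortex 2 includes Mmp15, its highest MMP at 17.5 FPKM.

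Timp3, a matrix-bound inhibitor that acts on ADAM17 and ADAMTS enzymes as well as MMPs, fell in both conditions, while Timp1 and Timp2 did not pass in either. Timp3 was at 18.8, 19.0 and 15.1 FPKM in PSS, 9.22, 9.11 and 8.78 in HSS, and 4.44, 7.42 and 6.69 in Vortex. All Vortex libraries, replicate 2 included, lay below HSS, and HSS below PSS. The log2 fold change was -0.92 ± 0.21 in HSS (adjusted p = 0.03) and -1.34 ± 0.21 in Vortex (adjusted p = 0.00622). The HSS call was lost on leaving out any PSS or HSS library (up to 0.145), in the fit with the replicate number as a block (0.0622) and after removal of the GC trend (0.0523). The Vortex call held without each of the 9 libraries in turn (up to 0.0408). Vortex against HSS did not pass (-0.41 ± 0.21, adjusted p = 0.24), but passed without Vortex replicate 2 (0.0308).

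Timp1, a secreted inhibitor of most MMPs, was at 33.7, 32.2 and 41.1 FPKM in PSS, 62.3, 62.4 and 67.2 in HSS, and 84.9, 32.5 and 106 in Vortex. HSS lay above PSS, and Vortex replicate 2 within the PSS range. Its log2 fold change was 0.87 ± 0.36 in HSS (adjusted p = 0.18) and 1.22 ± 0.36 in Vortex (adjusted p = 0.0547), and without Vortex replicate 2 both passed (0.00142 and 7.16e-05). Timp2, which had the highest mean FPKM of the TIMPs in PSS (49.0 ± 7.77), was at 72.0 ± 2.16 in HSS and 69.9 ± 22.9 in Vortex (mean ± SD, n = 3). It did not pass in HSS (0.59 ± 0.23, adjusted p = 0.162) or Vortex (0.68 ± 0.23, adjusted p = 0.0863) with all libraries, and passed in both without Vortex replicate 2 (0.00806 and 0.00122). Timp4 had 1 to 18 counts per library and a log2 fold change of -0.21 ± 0.57 in HSS and -1.89 ± 0.65 in Vortex (adjusted p = 0.872 and 0.0839).

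Of the ADAMs, Adam8 rose and Adam19 fell in both conditions. Adam8, a sheddase best known from leukocytes, was at 0.578, 0.693 and 0.373 FPKM in PSS, 6.21, 5.78 and 6.18 in HSS, and 14.8, 1.22 and 7.02 in Vortex. Every HSS and Vortex library lay above every PSS library, with Vortex replicate 2 nearest to PSS. Of the macrophage markers, Csf1r and Cd68 were also lowest in PSS, and Ptprc, Adgre1, Itgam and Aif1 had 0 to 7 counts in every library. Lyz2 went another way, with 0.556 to 1.09 CPM in PSS, 0.561 to 0.802 in HSS, and 0.189, 0.953 and 10.7 in Vortex. The log2 fold change of Adam8 was 3.50 ± 0.74 in HSS (adjusted p = 0.0231) and 3.99 ± 0.75 in Vortex (adjusted p = 0.0112). The HSS call was lost on leaving out any PSS or HSS library (up to 0.114), and the Vortex call without PSS replicate 1 or 3 (0.0602 and 0.0603). Vortex against HSS did not pass (0.48 ± 0.66, adjusted p = 0.682), but passed without Vortex replicate 2 (0.99 ± 0.29, adjusted p = 0.0363).

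Adam19, which sheds neuregulin, was at 24.1, 25.0 and 18.0 FPKM in PSS, 6.99, 7.72 and 7.58 in HSS, and 8.58, 11.3 and 8.95 in Vortex. The groups did not overlap, and HSS was lowest. It fell by 1.55 on the log2 scale in HSS (SE 0.20, adjusted p = 0.00311) and by 1.04 in Vortex (SE 0.19, adjusted p = 0.0106). The HSS call held without each of the 9 libraries in turn (up to 0.0316), and the Vortex call ended without PSS replicate 1 (0.0592). The difference between Vortex and HSS did not pass (0.51 ± 0.19, adjusted p = 0.128).

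Adam10, Adam9 and Adam17 made up 73.41% to 84.61% of the summed ADAM FPKM in 8 libraries and 42.36% in Vortex replicate 2. Adam10, which sheds Notch receptors and VE-cadherin, was at 64.1 ± 1.69 FPKM in PSS, 72.6 ± 0.441 in HSS and 41.3 ± 17.9 in Vortex (mean ± SD, n = 3), where Vortex replicate 2 had 20.9. It did not pass in HSS (0.21 ± 0.29, adjusted p = 0.73), in Vortex (-0.47 ± 0.30, adjusted p = 0.326) or between them (-0.68 ± 0.30, adjusted p = 0.177), but the last passed without replicate 2 (-0.37 ± 0.11, adjusted p = 0.0361). Adam17, which releases tumour necrosis factor, was at 17.7 ± 0.234, 23.6 ± 0.625 and 14.7 ± 7.29 FPKM, with adjusted p = 0.496 in HSS and 0.871 in Vortex. Adam9, a broadly expressed sheddase, was at 25.8 ± 1.33, 38.0 ± 0.408 and 27.8 ± 16.9 FPKM, with adjusted p = 0.466 and 0.713. Without Vortex replicate 2, Adam17 (0.45 ± 0.10, adjusted p = 0.00774) and Adam9 (0.59 ± 0.13, adjusted p = 0.00704) passed in HSS, and Adam9 also in Vortex (0.69 ± 0.14, adjusted p = 0.00441). Adam15, found at endothelial junctions, was at 8.67 to 11.4 FPKM in 8 libraries and 34.3 in Vortex replicate 2, and passed in no comparison with all libraries (adjusted p = 0.889, 0.154 and 0.13) or without that library (0.436, 0.332 and 0.117).

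The ADAMTS proteoglycanases, which cut versican, aggrecan and related molecules, did not move as 1 group. Adamts9 was at 8.16, 8.35 and 6.14 FPKM in PSS, 14.8, 14.9 and 14.8 in HSS, and 2.79, 2.92 and 4.22 in Vortex. The 3 groups did not overlap, with HSS highest and Vortex lowest, and Vortex replicate 2 lay between the other Vortex libraries. It rose by 1.01 ± 0.20 on the log2 scale in HSS (adjusted p = 0.0163) and fell by 1.02 in Vortex (SE 0.20, adjusted p = 0.0116). Between Vortex and HSS the log2 fold change was -2.03 ± 0.20 (adjusted p = 0.00286), which held without each of the 9 libraries (up to 0.036) and in the fit of the HSS and Vortex libraries alone (0.0348). The HSS call was lost on leaving out any PSS or HSS library (up to 0.0842), and the call of Vortex against PSS without PSS replicate 1 (0.0627).

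Adamts5, an aggrecanase, was highest in the HSS libraries, with 0.581, 0.754 and 0.464 FPKM in PSS, 1.96, 2.14 and 2.08 in HSS, and 0.861, 0.444 and 0.699 in Vortex. It rose in HSS (1.82 ± 0.29, adjusted p = 0.00706), was at 0.33 ± 0.28 in Vortex against PSS (adjusted p = 0.477), and was lower in Vortex than in HSS (-1.49 ± 0.28, adjusted p = 0.0202). The HSS call ended without PSS replicate 1 (0.0501). The call of Vortex against HSS was lost on leaving out PSS replicate 1 or any HSS library (up to 0.109) and with the replicate number as a block (0.058).

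Adamts4, the other main aggrecanase, had another order. It was at 13.4, 14.6 and 10.95 FPKM in PSS, 20.1, 20.1 and 20.2 in HSS, and 49.8, 25.0 and 80.7 in Vortex, so that every Vortex library lay above every HSS library. It rose in Vortex against PSS (2.16 ± 0.35, adjusted p = 0.00703), a call that held without each of the 9 libraries (up to 0.045), and against HSS (1.49 ± 0.34, adjusted p = 0.0365). The call against HSS was lost on leaving out any HSS or PSS library or the third Vortex library (up to 0.158), in the block fit (0.0837) and after removal of the GC trend (0.0671). HSS against PSS did not pass (0.67 ± 0.34, adjusted p = 0.278), but passed without Vortex replicate 2 (0.0122). Adamts1, a versican-cutting enzyme with the highest FPKM of the ADAMTS genes in 8 of the 9 libraries (Adamts4 was higher in Vortex replicate 3), was at 45.4 ± 14.0, 56.3 ± 1.15 and 66.8 ± 30.5 FPKM in PSS, HSS and Vortex (mean ± SD, n = 3). It did not pass in HSS (0.35 ± 0.33, adjusted p = 0.594) or Vortex (0.74 ± 0.33, adjusted p = 0.174), and the latter passed without replicate 2 (0.0173).

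Of the other ADAMTS genes, Adamts6 and Adamts10, whose proteins associate with fibrillin, and Adamts7, which cuts cartilage oligomeric matrix protein, were called once each. Adamts6 was at 1.36, 1.51 and 1.09 FPKM in PSS, 0.802, 0.648 and 0.510 in HSS, and 0.301, 0.240 and 0.343 in Vortex. The groups were apart, in the order PSS, HSS, Vortex. It fell by 1.99 on the log2 scale in Vortex (SE 0.28, adjusted p = 0.00447, up to 0.0337 without each library), and did not pass in HSS (-0.97 ± 0.27, adjusted p = 0.0572) or between Vortex and HSS (-1.02 ± 0.27, adjusted p = 0.0545). Both of these passed without Vortex replicate 2 (0.00748 and 0.0325). Adamts10 was at 10.1 ± 2.04 FPKM in PSS, 5.85 ± 0.0691 in HSS and 8.17 ± 0.759 in Vortex. Its fall in HSS (-0.75 ± 0.19, adjusted p = 0.0437) was lost on leaving out PSS replicate 1 or 2 or any HSS library (up to 0.184) and in the block fit (0.0741). Vortex against HSS did not pass (0.62 ± 0.19, adjusted p = 0.0788), but passed without Vortex replicate 2 (0.0335). Adamts7 was at 2.82, 3.20 and 2.22 FPKM in PSS, 7.16, 6.62 and 6.36 in HSS, and 18.0, 5.41 and 7.73 in Vortex, with every HSS and Vortex library above PSS. It rose in Vortex (2.10 ± 0.41, adjusted p = 0.0123), lost without PSS replicate 1 or 3 (0.0627 and 0.0614) and after removal of the GC trend (0.0512). In HSS it did not pass (1.33 ± 0.40, adjusted p = 0.0809), but passed without Vortex replicate 2 (1.33 ± 0.28, adjusted p = 0.006). Vortex against HSS did likewise (0.247 with all libraries and 0.0278 without).

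Adamts13, the protease of von Willebrand factor, had 5 to 8 counts in the PSS libraries, 15 to 23 in HSS, and 21, 5 and 17 in Vortex. It did not pass in HSS (1.80 ± 0.61, adjusted p = 0.111) or Vortex (1.41 ± 0.62, adjusted p = 0.163), and passed in both without Vortex replicate 2 (0.0111 and 0.0122). Adamts13 met the count filter only through libraries outside PSS, where it was higher, so these p-values do not support a rise. In the PSS and Vortex libraries alone it had too few counts to be tested. Vwf, which encodes its substrate and was named after its values were seen, had 12900 to 17573 counts in PSS, 234 to 344 in HSS, and 1028, 18962 and 3654 in Vortex.

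**Figure D4:**
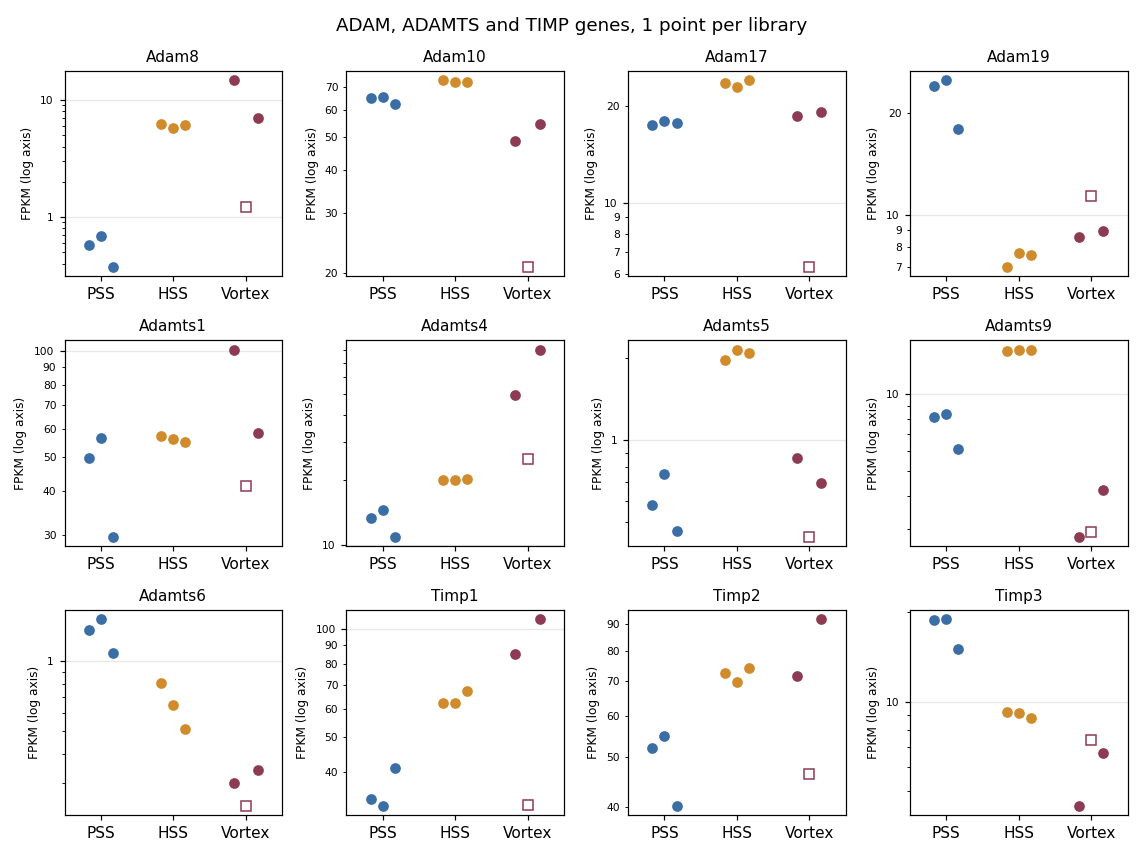
FPKM of 12 ADAM, ADAMTS and TIMP genes on log axes, 1 point per library, with Vortex replicate 2 as an open square. Adamts9 and Adamts5 are highest in HSS, Adamts4 in Vortex, and Adam19, Adamts6 and Timp3 are highest in PSS in every library.

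Fixed lists of genes that act with these enzymes held 73 genes in the table, of which 58 were tested. In HSS 7 rose and 9 fell, with 42 not passing (median log2 fold change 0.02), where 4.18% and 3.7% of all tested genes did. In Vortex against PSS 9 rose and 5 fell, with 44 not passing (median 0.34), where 8.33% and 5.03% of all genes did. Without Vortex replicate 2 there were 20 higher and 18 lower in HSS, and 22 higher and 16 lower in Vortex (medians 0.02 and 0.18), against 15.4%, 13.7%, 19.7% and 16.6% of all genes. The lists were drawn up with earlier results of these data known. The genes with the smallest p were F2r, Kdr and Tspan17 in HSS, and Papln, F2r and Plaur in Vortex. F2r, the thrombin receptor that MMPs can also cut, was at 72.4 to 98.6 FPKM in PSS, 17.7 to 19.7 in HSS and 17.6, 30.9 and 29.2 in Vortex (log2 fold change -2.23 ± 0.24, adjusted p = 0.00174, and -1.60 ± 0.23, adjusted p = 0.00504). Plaur, the urokinase receptor that focuses plasmin formation on the cell surface, rose from 9.82 to 18.8 FPKM in PSS to 29.9 to 32.3 in HSS and 44.1, 43.2 and 33.9 in Vortex (1.07 ± 0.25, adjusted p = 0.0332, and 1.58 ± 0.25, adjusted p = 0.00634).

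Tspan17, a tetraspanin that carries ADAM10 to the cell surface, rose in HSS (1.35 ± 0.20, adjusted p = 0.00548) and Vortex (0.98 ± 0.20, adjusted p = 0.014). Papln, a secreted relative of the ADAMTS family without protease activity, was at 3.92 to 6.46 FPKM in PSS, 2.05 to 2.33 in HSS and 0.905 to 1.19 in Vortex, with no overlap. It fell in both (-1.15 ± 0.22, adjusted p = 0.0164, and -2.09 ± 0.23, adjusted p = 0.00242). In the list of ADAMTS-like proteins, 3 of 5 tested genes fell and none rose in HSS, and the same counts held in Vortex (3.7% and 5.03% of all genes fell). Without Vortex replicate 2, 3 were lower in each, and 2 were higher in HSS and 1 in Vortex. Kdr, a receptor shed by ADAM enzymes and also 1 of the 10 endothelial markers, was at 44.9 to 55.5 FPKM in PSS, 0.805 to 0.878 in HSS, and 9.49, 75.3 and 11.7 in Vortex (-5.89 ± 0.83 in HSS, adjusted p = 0.0048, and -0.47 ± 0.67 in Vortex, adjusted p = 0.685). Its value in Vortex without replicate 2 was -2.11 (adjusted p = 5.32e-06).

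**Figure D5:**
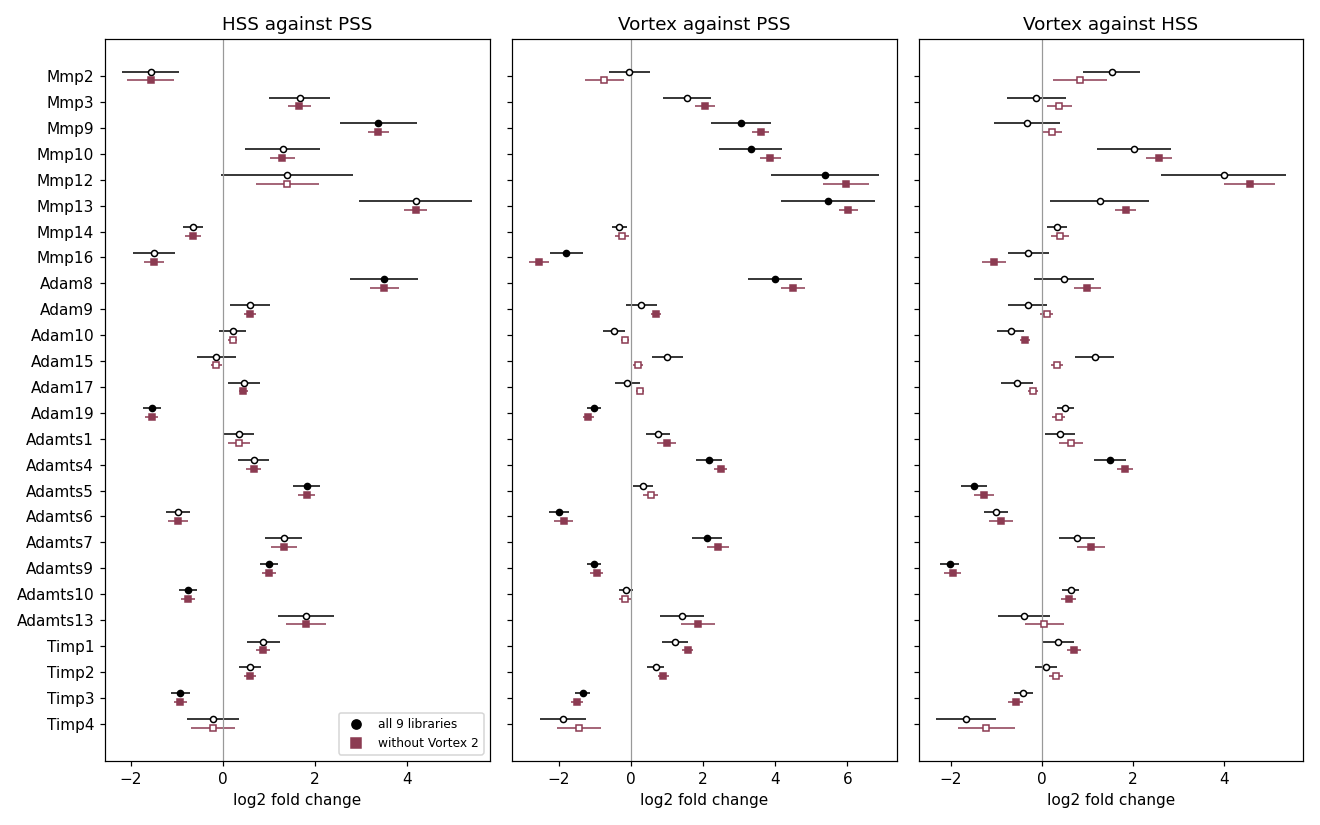
Log2 fold change (point) and standard error (bar) of the 26 members named by the rule in the 3 comparisons; black circles are the fit of all 9 libraries and red squares the fit without Vortex replicate 2, filled where the adjusted p was under 0.05. For Mmp13 in HSS against PSS the value was 4.19 in both fits, with an SE of 1.23 and of 0.25.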

How the data were processed

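The authors deposited a single table of 31232 genes. It holds the deposited count of reads for each gene in each library and the authors' FPKM, scaled by gene length and library total. Count, FPKM and total gave 1 length per gene in 100% of genes (relative tolerance 1e-06). HISAT2, HTSeq 0.13.5 and GRCm39 are named, per the submitters' processing notes. The strand setting was not given in the sources used here. TRIzol was used for extraction, per the labels.

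Samples were grouped by their titles. The counts went into edgeR 4.0.16 (R 4.3.3) with filterByExpr over the 3 groups (15774 genes kept), TMM scaling, and a robust quasi-likelihood fit of all 9 libraries with 1 mean per group. SE is the size of the log2 fold change over the root of its F statistic. Alternatives were DESeq2 1.42.0, limma 3.58.1 on log2 FPKM (pseudocounts 1 and 0.1), DESeq2 size factors, no filter beyond 1 count, a replicate block, the compared libraries alone, each library left out, and removal of a GC trend (lowess span 0.3, GC of the longest GENCODE M21 transcript, known for 98.5% of tested genes).

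The members, lists and rules were chosen with earlier results of these data known. Named members are those called in any comparison, the TIMPs, preset genes of known roles and the 10 with the highest mean FPKM. Of the partner genes, the 3 with the smallest p in each comparison with PSS are named. Mmp15, Mmp17, Mmp27, Vwf, the members listed for the split of the Vortex libraries, and the promoters shown were chosen after their values were seen; the planned choice was the promoters of the members called most often and of Timp1 and Timp3.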

Additional observations from a re-analysis of the deposited data

How the results depend on the processing

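With DESeq2 size factors the counts of members called were 7, 12 and 3 in HSS against PSS, Vortex against PSS and Vortex against HSS, as with TMM. Leaving out 1 library gave 1 to 30, 3 to 27 and 1 to 18, with the highest value each time without Vortex replicate 2. In HSS against PSS, the count was 4 with no filter beyond 1 count, 13 by the DESeq2 Wald test, 4 with the replicate block, 32 with only the compared libraries, and 31 with Vortex replicate 2 left out and the GC trend removed, an alternative chosen after seeing the data. In Vortex against PSS, it was 0 with only the compared libraries (edgeR, 16 at an unadjusted p under 0.05), 26 with those libraries less Vortex replicate 2 (also chosen after seeing the data), and 30 with replicate 2 left out and the GC trend removed. In Vortex against HSS, it was 11 by DESeq2, 1 with the replicate block, 1 with only the compared libraries, 14 with those less Vortex replicate 2, and 18 with replicate 2 left out and the GC trend removed. The cause of these moves was not tested. Shares of all genes are given above only for the main fit, the fit without Vortex replicate 2 and the compared libraries alone. The other counts of this section therefore cannot be set against the rate over all genes.

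Among the 26 members named by the rule, 1 value reversed and passed. Adam17 in Vortex against PSS was -0.10 with all libraries and 0.33 (adjusted p = 0.0276) with Vortex replicate 2 left out and the GC trend removed. Outside the 26, Mmp15 went from 0.58 to -3.71 (adjusted p = 0.00218) in Vortex against PSS without Vortex replicate 2. Mmp17 went from 1.95 to -0.11 (adjusted p = 0.83) there. No pairing of the samples by replicate number was seen. Deviations of libraries with the same number correlated between -0.12 and 0.12, and those with different numbers between -0.16 and 0.12. Of the 9 libraries, 5 correlated best with a library of their own number. With 3 libraries per group, this check cannot exclude pairing. The replicate block ended the calls of Mmp9, Timp3 and Adamts10 in HSS, of Mmp9, Mmp10, Mmp12 and Mmp13 in Vortex against PSS (adjusted p = 0.0994, 0.11, 0.119 and 0.0846), and of Adamts4 and Adamts5 in Vortex against HSS. With no filter beyond 1 count, the HSS calls of Adam8, Adamts10 and Mmp9 were also lost (0.0502, 0.0911 and 0.0667), and by limma with pseudocount 1 those of Adam8 and Mmp9 (0.0502 and 0.0508). In Vortex against HSS, limma lost Adamts4 (0.0807 and 0.0808). The 20 untested members had too few counts for the filter, and Mmp2, Timp4 and Adamts13 had few counts in every library.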

Other observations

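A few members that passed in no comparison with all 9 libraries are given here, chosen after their values were seen. Adamts14, a procollagen N-proteinase, was at 1.32, 1.65 and 0.852 FPKM in PSS, 3.82, 4.18 and 4.12 in HSS, and 6.22, 0.528 and 6.78 in Vortex. HSS lay above PSS, and Vortex replicate 2 was the lowest library. Its log2 fold change in HSS was 1.71 ± 0.71 (edgeR, adjusted p = 0.183) with all libraries and 1.71 ± 0.20 (adjusted p = 0.000185) without Vortex replicate 2. Adamts2, which has the same substrates, was at 0.0461 to 0.117 FPKM in 8 libraries and 1.12 in Vortex replicate 2.

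Mmp19, a basement membrane protease, was at 7.59, 7.79 and 8.82 FPKM in PSS, 16.9 to 18.7 in HSS, and 15.4, 1.81 and 17.9 in Vortex. It had a log2 fold change of 1.19 ± 0.61 in HSS (adjusted p = 0.289), and 1.18 ± 0.13 without Vortex replicate 2 (adjusted p = 9.25e-05). Adamts17 was lower in HSS (0.296 to 0.316 FPKM) than in PSS (0.775 to 1.49) in every library, with adjusted p = 0.118 with all libraries and 0.0086 without Vortex replicate 2. Mmp28 was at 3.88 to 7.56 FPKM in all libraries and passed in neither fit, with adjusted p = 0.849 and 0.608 in HSS.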
